A study of Homo sapiens with 12 samples.

Results

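The 9 genes described here encode sterol sensors of the endoplasmic reticulum, the SREBP factors they control, and related proteins. They were chosen by symbol, with earlier results of these data known: INSIG1, INSIG2, SCAP, SREBF1, SREBF2, MBTPS1, MBTPS2, STARD4 and RNF139. All 9 were among the 19677 genes listed, and all 9 were among the 12470 tested. They were measured by RNA sequencing in CAOV3, an established human cell line derived from an ovarian carcinoma. There were 4 groups of 3 libraries: a control given DMSO, the solvent; 10% ascites with DMSO for 16 h; 200 uM bezafibrate for 16 h; and both agents for 16 h, called the combination. DMSO is named in the labels of control and ascites libraries but not in those of the drug groups, and the control has no listed time. Ascites is abdominal fluid that builds up in ovarian cancer, and bezafibrate is a fibrate, a class of drug that activates PPAR receptors. The study asked what bezafibrate does to the changes in transcription brought by ascites. The labels do not state the number of ascites donors or whether replicates were separate cultures, so the p values measure the spread between these libraries, which may be technical.

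SREBP transcription factors are made as membrane proteins and bind SCAP, which escorts them to the Golgi when sterols are low. There the site-1 and site-2 proteases release the part that enters the nucleus and activates genes of cholesterol and fatty acid synthesis. When sterols are plentiful, INSIG proteins hold SCAP and SREBP in the endoplasmic reticulum. INSIG1 is itself an SREBP target, which closes a feedback loop. The tables count mRNA per gene, so the cleavage of SREBP proteins was not measured, and the SREBP-1a and SREBP-1c transcripts of SREBF1 were not separated.

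Promoters of the members that the results turn on, and of INSIG2 as the paralog of INSIG1, are shown because SREBP factors act on such sequences, and INSIG1, SREBF2 and STARD4 are themselves known SREBP targets. Of the 9 genes, 8 were matched to the RefSeq promoter table for GRCh38.p14, and the promoter of RNF139 was not analysed here. The 250 bases before the RefSeq start are printed 5′ to 3′ on the strand of the gene, and motif distances are from that start. Gene positions given below come from GENCODE v29, whose starts can differ. The INSIG1 window reaches past its GENCODE start at 155297776, and the printed windows of SREBF2, STARD4, SREBF1 and INSIG2 also reach past their GENCODE starts. The SCAP window, chr3:47475942-47476191 (-), lies wholly inside the GENCODE gene, which spans 47413694-47477126. Capitals mark matches, on either strand, to TCACNCCAC, a form of the sterol regulatory element to which SREBP binds, to the E-box CACGTG, or to the NF-Y box CCAAT, which reads ATTGG on the other strand. The INSIG1 window is chr7:155297628-155297877 (+), that of SREBF2 is chr22:41832855-41833104 (+), that of STARD4 is chr5:111512536-111512785 (-), that of SREBF1 is chr17:17836987-17837236 (-) and the first of the INSIG2 windows is chr2:118088221-118088470 (+).
INSIG1: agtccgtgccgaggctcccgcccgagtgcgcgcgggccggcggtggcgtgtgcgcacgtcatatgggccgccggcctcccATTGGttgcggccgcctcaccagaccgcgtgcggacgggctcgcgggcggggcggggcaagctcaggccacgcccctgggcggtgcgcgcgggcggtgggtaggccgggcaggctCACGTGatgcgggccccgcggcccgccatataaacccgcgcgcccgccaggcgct
SREBF2: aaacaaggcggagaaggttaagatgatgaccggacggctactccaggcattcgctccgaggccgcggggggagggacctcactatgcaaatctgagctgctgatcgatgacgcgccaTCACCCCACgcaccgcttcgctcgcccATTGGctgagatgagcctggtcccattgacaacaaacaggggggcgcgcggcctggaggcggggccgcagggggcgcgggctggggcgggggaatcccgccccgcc
STARD4: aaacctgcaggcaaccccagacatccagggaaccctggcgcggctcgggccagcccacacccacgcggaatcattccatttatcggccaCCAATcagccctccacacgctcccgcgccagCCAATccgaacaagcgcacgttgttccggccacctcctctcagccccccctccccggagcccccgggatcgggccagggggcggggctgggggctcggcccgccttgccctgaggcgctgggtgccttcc
SREBF1: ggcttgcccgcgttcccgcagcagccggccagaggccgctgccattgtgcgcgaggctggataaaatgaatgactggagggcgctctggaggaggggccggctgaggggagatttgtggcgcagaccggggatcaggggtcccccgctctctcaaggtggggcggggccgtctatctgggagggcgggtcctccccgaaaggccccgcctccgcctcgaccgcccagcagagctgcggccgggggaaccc
INSIG2: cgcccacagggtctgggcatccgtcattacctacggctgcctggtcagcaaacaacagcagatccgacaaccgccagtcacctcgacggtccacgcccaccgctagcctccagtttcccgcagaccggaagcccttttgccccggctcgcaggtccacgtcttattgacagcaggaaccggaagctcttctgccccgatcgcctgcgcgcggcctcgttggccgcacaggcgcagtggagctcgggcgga

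Among these 8 genes only SREBF2 had a window with TCACNCCAC, which begins 133 bases before its start. That motif occurs in 310 of 35116 promoter windows of the same length (0.883%), and it overlaps none of the other motifs there. INSIG1 held CACGTG 55 bases before its RefSeq start, and SCAP held it 58 bases before its own, against 6.34% of all windows. Both of these matches lie inside the GENCODE genes. CCAAT lay on the opposite strand 170 bases before the start of INSIG1 and 106 before that of SREBF2. STARD4 held it at 161 and at 130 bases, and 32% of all windows held it. The SP1 box GGGCGG, left in lower case, was present in INSIG1, INSIG2, SCAP, SREBF1, SREBF2 and STARD4, and in 42.6% of all windows. None of these 4 motifs was found in the windows of MBTPS1 and MBTPS2. SREBF1 was scanned at 1 start only, so any other start of its transcripts was not examined. A match describes letters and no binding was measured.

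Depth and labels were checked over the whole series first. Total counts per library ranged from 11831093 to 18762759, and the common coefficient of biological variation was 3.06%. PDK4, a PPAR target used to check the drug, rose by 4.07 on the log2 scale with bezafibrate, averaged over both ascites conditions. All 5 epithelial markers were expressed (KRT8 was at 2867 to 3166 CPM, a count scaled to the library's normalized total), whereas the serous carcinoma markers PAX8, WT1 and MUC16 averaged 0.676, 0.088 and 0.0598 CPM over the 12 libraries. PAX8 stood at 0.378 ± 0.273 CPM in control and 1.11 ± 0.138 with bezafibrate, and the epithelial marker CDH1 at 18.6 ± 0.378 and 53.3 ± 3.17 CPM (SD, n = 3 each). Of 6 blood and platelet markers, 3 were at 0 counts, and the list summed to 72.2 to 75.9 CPM in control, 74.5 to 82.8 in ascites, 89.2 to 93.8 in bezafibrate and 92.1 to 99.7 in the combination, nearly all of it CD68. The 4 fibroblast markers, led by LUM, summed to 191 to 196, 186 to 193, 166 to 177 and 159 to 177 CPM in the same order. The part of these shifts in the results below was not tested. Combination replicate 3 stood apart on the second principal component, at -22.4 against -4.37 to 9.84 for the other 11 libraries. In bulk RNA, fewer cells of a type and less RNA per cell cannot be told apart.

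INSIG1 carried the clearest response of the 9 genes, lower with ascites and higher with bezafibrate. INSIG1 lies at chr7:155297776-155310235 (+) on GRCh38 and has 6 exons. Its level in the control libraries was 45.6, 44.2 and 41.2 CPM for replicates 1 to 3. With ascites it was 32.8, 33.6 and 33.3 CPM, with bezafibrate 60.6, 57.5 and 59.4 CPM, and with both 47.9, 45.3 and 47.4 CPM. All 3 ascites libraries lay below every control library and all 3 bezafibrate libraries lay above, while the combination overlapped the control. Among all tested genes, 12.7% did not overlap between ascites and control and 33.5% did not overlap between bezafibrate and control, in either direction. Means were 43.7 ± 2.23, 33.2 ± 0.413, 59.1 ± 1.57 and 46.9 ± 1.42 CPM (SD, n = 3 each).

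Ascites alone changed 11 of the 12470 genes, all lower (0.0882%; with only the groups compared fitted 10 of 33 were higher, and with no filter on low counts 25 of 59), at an adjusted p under 0.05 in edgeR's quasi-likelihood test with Benjamini-Hochberg adjustment, the threshold for every call here. INSIG1 was the 1 of 9 members among them, a set chosen with earlier results known, and held place 3 of all tested genes by p. It fell by 24.2%, a log2 change of -0.40 (SE 0.058, adjusted p = 0.00022). Ascites on top of bezafibrate changed 16 genes (0.128%), and again INSIG1 was the 1 member called. There it fell by 20.6%, a log2 change of -0.33 (SE 0.052, adjusted p = 0.000664). Averaged over both drug conditions the log2 change with ascites was -0.37 (SE 0.039, adjusted p = 1.14e-07).

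Bezafibrate raised INSIG1 whether or not ascites was present. Without ascites it rose by 35.1%, a log2 change of 0.43 (SE 0.052, adjusted p = 2.7e-08), and in ascites by 41.5%, a log2 change of 0.50 (SE 0.058, adjusted p = 9.8e-09). These calls stand against a wide background, since bezafibrate changed 17.6% of tested genes without ascites and 17.8% with it. By p, INSIG1 was at place 356 and 327 of 12470 in these comparisons. The combination against control gave a log2 difference of 0.10 (95% interval -0.01 to 0.21, adjusted p = 0.231). That comparison shares its control libraries with those above.

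INSIG2, the paralog that also retains SCAP, did not pass the test in any of the 8 contrasts. Control libraries lay at 19.1 to 19.5 CPM, ascites at 16.7 to 19.65, bezafibrate at 16.8 to 19.95 and the combination at 16.6 to 18.7. The largest difference was -0.15 on the log2 scale in the combination against control (adjusted p = 0.262), where the groups did not overlap, as was so for 30.2% of all genes. Averaged contrasts gave -0.10 (95% interval -0.22 to 0.03) for ascites and -0.05 (95% interval -0.18 to 0.07) for bezafibrate.

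The balance of the paralogs was followed as the ratio of INSIG1 to INSIG2 counts within each library, which depends on no scaling between libraries. The ratio was 2.39, 2.27 and 2.13 in control, 1.67, 1.79 and 1.99 in ascites, 3.04, 2.93 and 3.53 in bezafibrate and 2.89, 2.42 and 2.77 in the combination. Every ascites library was below every control library, and every bezafibrate library was above. Averaged over the other agent, ascites lowered the ratio to 0.826 of its value and bezafibrate raised it to 1.44 times (two-sided exact permutation test within strata, n = 3 libraries a group, p = 0.005 for each, the smallest the 400 arrangements can give, and 0.00667 adjusted over 4 relations). INSIG1 is also the numerator tested above, so the ratio is not separate evidence of its change.

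**Figure D1:**
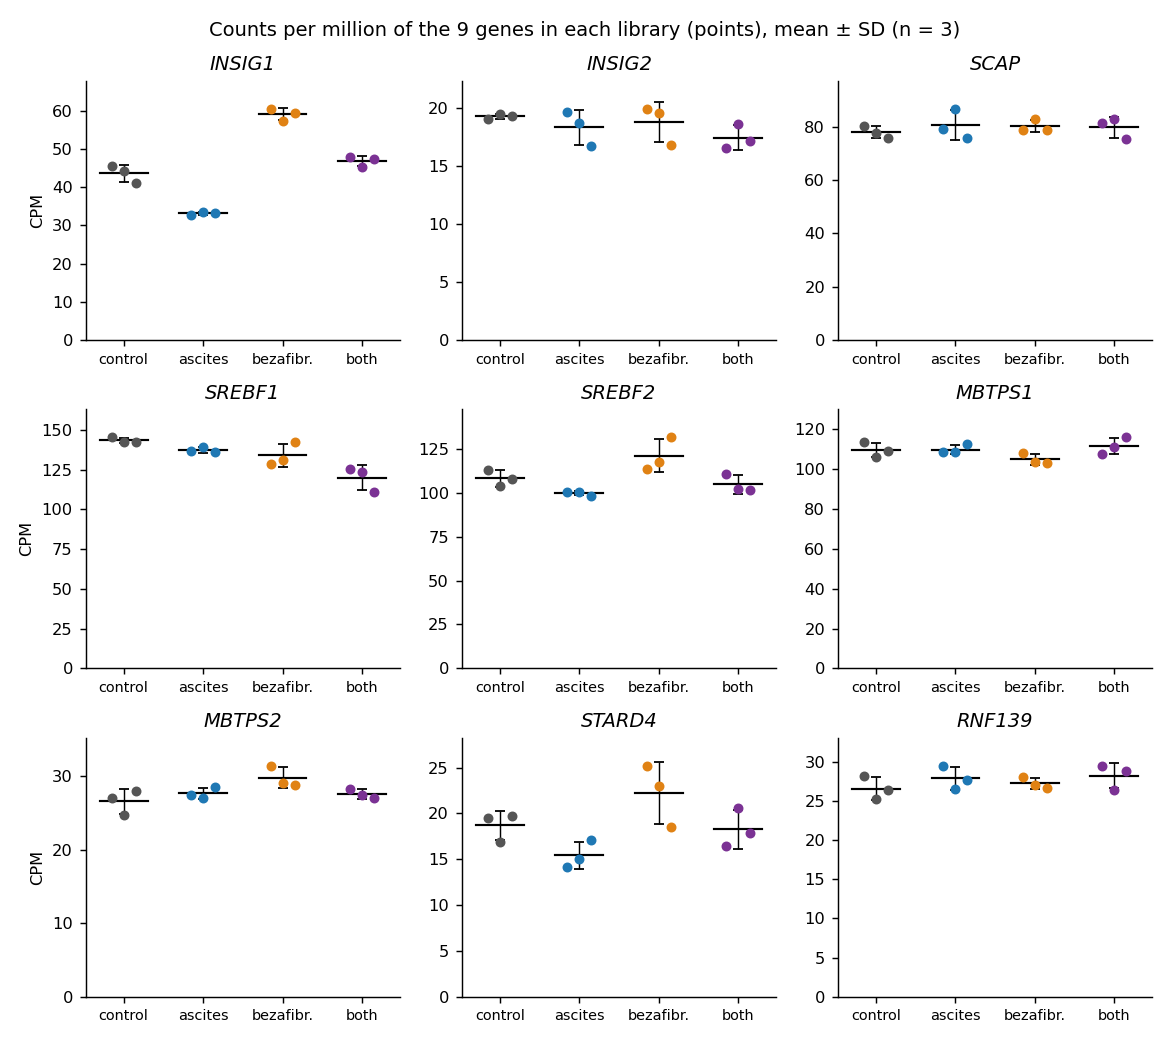
CPM (vertical axis, linear from 0) of each of the 9 genes in the 12 libraries, by group; points are libraries and bars give the mean ± SD (n = 3). INSIG1 falls from 43.7 to 33.2 with ascites and reaches 59.1 with bezafibrate, while SCAP stays between 75.6 and 86.9 in all libraries.

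SCAP, the escort and the sterol sensing protein of the complex, showed the narrowest range of group means. Its control libraries lay at 76.1 to 80.5 CPM, and all 12 libraries lay between 75.6 and 86.9 CPM. The highest group mean was 1.03 times the lowest, against 1.78 times for INSIG1. SCAP was called in none of the 8 contrasts. The averaged log2 changes were 0.02 (95% interval -0.05 to 0.09) for ascites and 0.02 (95% interval -0.06 to 0.09) for bezafibrate, the latter at -0.0027 with upper-quartile scaling.

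The mRNAs of the precursors moved apart in the averaged bezafibrate contrast. SREBF2, which encodes SREBP-2 and serves mainly cholesterol synthesis, rose, whereas SREBF1, which encodes SREBP-1 and serves mainly fatty acid synthesis, fell. As reported, the drug comparison without ascites called only SREBF2 of this pair, and that in ascites called only SREBF1. SREBF2 lies at chr22:41833079-41907308 (+) and SREBF1 at chr17:17810399-17837002 (-). SREBF2 stood at 113.0, 103.6 and 107.95 CPM in control and at 100.4, 100.3 and 98.3 CPM in ascites. It stood at 113.6, 117.6 and 131.6 CPM in bezafibrate and at 110.7, 102.0 and 101.4 CPM in the combination. All bezafibrate libraries were above all control libraries and all ascites libraries below them, although the closest bezafibrate and control libraries were at 113.6 and 113.0 CPM. Bezafibrate replicate 3 was the highest of the 12. Of all tested genes, 33.5% did not overlap between bezafibrate and control and 12.7% between ascites and control, in either direction.

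Without ascites, bezafibrate raised SREBF2 by 11.5%, a log2 change of 0.16 (SE 0.047, adjusted p = 0.015). INSIG1 and SREBF2 were the 2 of 9 members called in that comparison, a share near the 17.6% of all genes. The call was lost without bezafibrate replicate 3 (log2 change 0.10, adjusted p = 0.186), without control replicate 2 (adjusted p = 0.108) and without control replicate 3 (adjusted p = 0.0509). In ascites the log2 difference was 0.08 (SE 0.049, adjusted p = 0.335) and was not called. The averaged drug change was 0.12 (SE 0.034, adjusted p = 0.00836), and it was called under every alternative run.

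The averaged ascites change of SREBF2 was -0.16 on the log2 scale (SE 0.034, adjusted p = 0.0198). INSIG1 and SREBF2 were the 2 of 9 members called there, against 0.281% of all genes. The members were chosen with earlier results of these data known, so this share is not separate evidence about the set. Neither pairwise comparison called SREBF2, with adjusted p values of 0.761 without the drug and 0.0899 with it, although the latter passed with no filter on low counts (adjusted p = 0.00166) and without bezafibrate replicate 1 (adjusted p = 0.0386) or combination replicate 1 (adjusted p = 0.0181). The averaged call was lost without any 1 of 7 libraries, namely control 1 or 3, ascites 1, 2 or 3, bezafibrate 3 and combination 2, with adjusted p values from 0.06 to 0.103.

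SREBF1 stood at 145.4, 142.7 and 142.5 CPM in control and at 136.9, 139.2 and 135.8 CPM in ascites. It stood at 128.8, 131.0 and 142.4 CPM in bezafibrate and at 125.4, 123.4 and 111.0 CPM in the combination. The combination held the 3 lowest libraries of the 12, and bezafibrate replicate 3 lay just below the lowest control library. All ascites, bezafibrate and combination libraries thus lay below every control library. Among all tested genes, 12.7% with ascites, 33.5% with bezafibrate and 30.2% with the combination did not overlap the control, in either direction. In ascites, bezafibrate lowered SREBF1 by a log2 change of -0.19 (SE 0.043, adjusted p = 0.00106), and INSIG1 and SREBF1 were the 2 of 9 members called, near the 17.8% of all genes.

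In the combination against control SREBF1 was the 1 of 9 members called, against 18.2% of all genes. SREBF1 fell by 16.2%, a log2 change of -0.26 (SE 0.043, adjusted p = 1.76e-05). Without combination replicate 3, the library that stood apart, the change was -0.21 (adjusted p = 6.51e-05), and the change in ascites was -0.14 (adjusted p = 0.00905). Without ascites the drug gave -0.10 (SE 0.042, adjusted p = 0.0995), which passed the test with upper-quartile scaling (adjusted p = 0.0478), with only the groups of the comparison fitted (adjusted p = 0.0409), and without bezafibrate replicate 3 (adjusted p = 0.0225) or combination replicate 3 (adjusted p = 0.0325). The averaged drug change was -0.15 (SE 0.030, adjusted p = 0.000209), and the averaged ascites change of -0.11 (SE 0.030, adjusted p = 0.153) was not called. That change passed with no filter on low counts (adjusted p = 0.0298) and without combination replicate 1 (adjusted p = 0.0462), and so did the combination against bezafibrate, at -0.16 (adjusted p = 0.303), with no filter (adjusted p = 0.0498). Exons of SREBF1 overlap 556 bases of RAI1 on the other strand and those of SREBF2 overlap 280 bases of SREBF2-AS1. Strand use in counting is not given in the sources used here, so a share of these counts is uncertain.

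The ratio of SREBF1 to SREBF2 counts separated the drug groups without overlap. It was 1.29, 1.38 and 1.32 in control and 1.36, 1.39 and 1.38 in ascites, against 1.13, 1.11 and 1.08 in bezafibrate and 1.13, 1.21 and 1.09 in the combination. Averaged over the ascites conditions, bezafibrate lowered it to 0.833 of its value (two-sided exact permutation test, n = 3 libraries a group, p = 0.005, adjusted 0.00667). The log2 difference was -0.26 without ascites and -0.27 with it, where 3 libraries against 3 cannot give a p below 0.1. For ascites the averaged ratio was 1.03 (exact permutation p = 0.085, adjusted 0.085). Both genes of this ratio are also tested above, so it is not separate evidence of their changes. How often ratios of other gene pairs separate the groups was not examined, for this ratio or for INSIG1 to INSIG2.

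**Figure D2:**
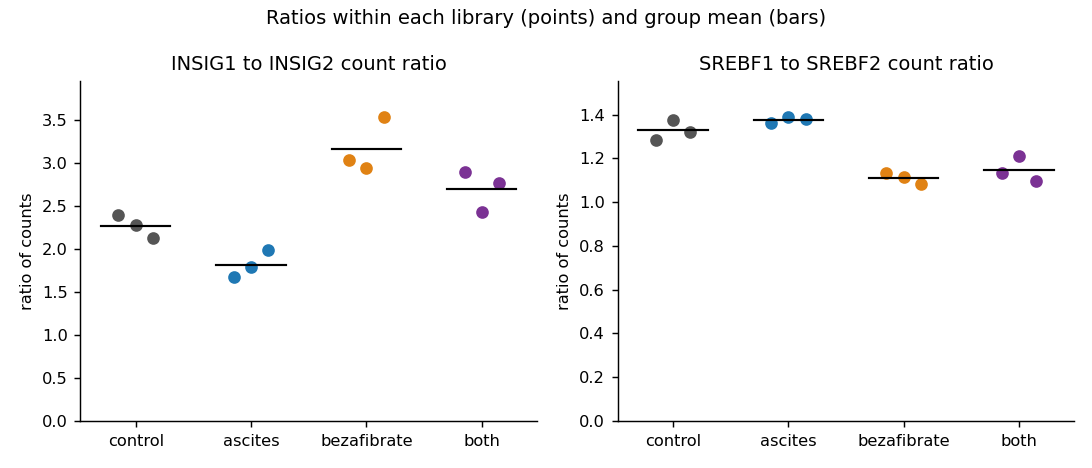
Ratio of counts within each library (vertical axis, no unit, from 0) for INSIG1 to INSIG2 and SREBF1 to SREBF2, by group; points are libraries and bars are group means. The SREBF1 to SREBF2 ratio lies at 1.29 to 1.39 in the 6 libraries without bezafibrate and at 1.08 to 1.21 in the 6 with it.

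The proteases that cut SREBP in the Golgi passed the test in no contrast. MBTPS1, the site-1 protease, lay at 106.2 to 113.5 CPM in control and at 103.2 to 116.1 CPM over all libraries. Its averaged log2 changes were 0.04 (95% interval -0.01 to 0.10) for ascites and -0.02 (95% interval -0.08 to 0.04) for bezafibrate. With ascites on top of bezafibrate the change of MBTPS1 was 0.09 (95% interval 0.004 to 0.17, adjusted p = 0.992). MBTPS2, the site-2 protease, lay at 24.8 to 28.0 CPM in control and at 28.9 to 31.5 CPM in bezafibrate. These groups did not overlap, as was so for 33.5% of all genes, but the log2 difference of 0.16 had an adjusted p of 0.0834. In ascites the drug groups overlapped, and the averaged drug change of MBTPS2 was 0.08 (95% interval -0.02 to 0.18). MBTPS2 shares 1093 exon bases with YY2 on the same strand, so its count is uncertain.

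STARD4, a soluble carrier that moves sterols between membranes and a known SREBP-2 target, had values in the same directions as INSIG1 with a wider spread. STARD4 stood at 19.5, 16.9 and 19.8 CPM in control and at 14.2, 14.99 and 17.1 CPM in ascites. It stood at 25.2, 23.0 and 18.5 CPM in bezafibrate and at 16.4, 20.5 and 17.8 CPM in the combination. Ascites replicate 3 overlapped the control, and bezafibrate replicate 3 lay below 2 control libraries.

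Only the averaged drug change called STARD4, at 0.24 on the log2 scale (SE 0.074, adjusted p = 0.0131). It joined INSIG1 and SREBF2 among the 3 members that rose and SREBF1 as the 1 that fell, so 4 of 9 were called against 28.3% of all genes (15% higher and 13.2% lower). The pairwise drug differences were 0.26 (adjusted p = 0.0764) without ascites and 0.23 (adjusted p = 0.166) with it. Without bezafibrate replicate 3 the first became 0.36 (adjusted p = 0.00527). It also passed with no filter on low counts (adjusted p = 0.0187) and with only the groups of the comparison fitted (adjusted p = 0.0282). The averaged ascites difference was -0.29 (SE 0.074, adjusted p = 0.107), which passed with no filter on low counts (adjusted p = 0.00113), without bezafibrate replicate 3 (adjusted p = 0.01) and without combination replicate 2 (adjusted p = 0.0412). STARD4 counts ran from 192 to 427 per library, and 124 exon bases are shared with STARD4-AS1 on the other strand.

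RNF139, also called TRC8, is a ubiquitin ligase with a sterol sensing domain that binds INSIG proteins. Its group means were 26.6 ± 1.49 CPM in control, 27.9 ± 1.48 in ascites, 27.3 ± 0.706 in bezafibrate and 28.2 ± 1.60 in the combination (SD, n = 3 each). The groups overlapped in all pairwise comparisons, and no contrast called it. The averaged log2 changes were 0.06 (95% interval -0.04 to 0.16) for ascites and 0.03 (95% interval -0.07 to 0.13) for bezafibrate.

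**Figure D3:**
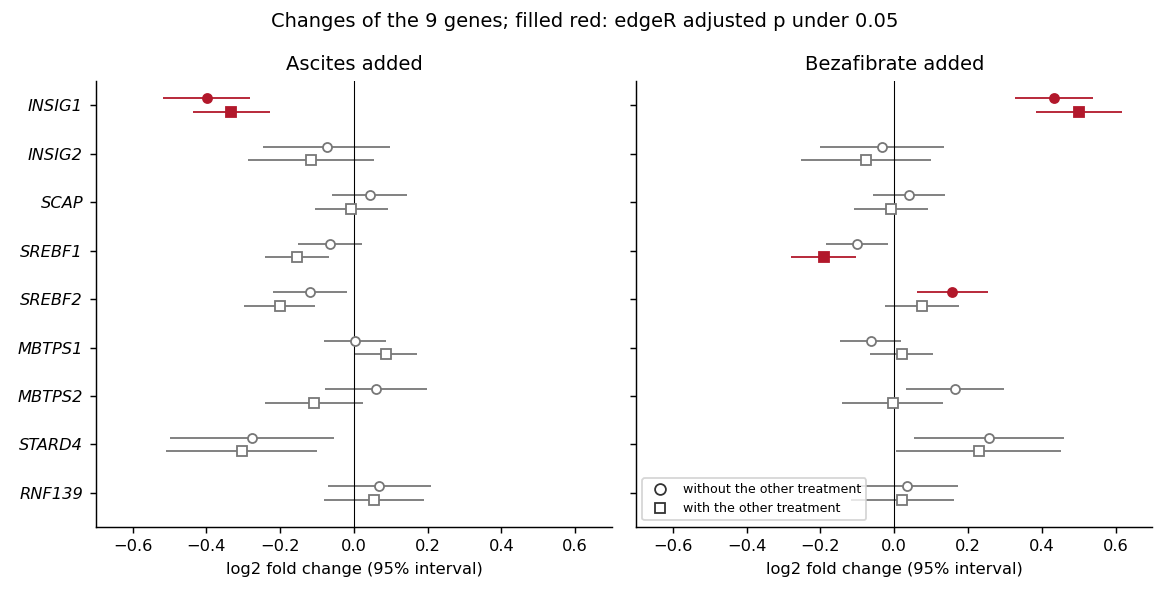
Log2 fold change with its 95% interval (horizontal axis) of each of the 9 genes (vertical axis) by contrast; filled red points passed an adjusted p of 0.05. The contrasts drawn are of each agent with and without the other. INSIG1 lies at -0.40 with ascites alone and at 0.43 with bezafibrate alone. The intervals of SCAP and RNF139 cross 0 in every contrast drawn. That of MBTPS1 lies above 0 with ascites on top of bezafibrate (0.004 to 0.17).

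Whether the drug acted differently in ascites was tested by the interaction, and no member was called. No gene of the 12470 passed in edgeR (0%) or in DESeq2, and 445 had an unadjusted p under 0.05, none of them a member. With no filter on low counts 36 genes passed, none of them a member. For INSIG1 the interaction was 0.07 (95% interval -0.09 to 0.23), for SREBF1 -0.09 (-0.21 to 0.03), for SREBF2 -0.08 (-0.22 to 0.06) and for STARD4 -0.03 (-0.33 to 0.27), all on the log2 scale. Differences of the drug effect within these intervals remain possible. The intervals are not limits of detection, since a call needed an adjusted p under 0.05 over all 12470 genes.

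Compared per length, the members differed in level in control cells. By the principal transcript, SREBF1 was highest at 34.35 ± 0.38 CPM per kb, followed by MBTPS1 at 25.3 ± 0.851, SREBF2 at 20.6 ± 0.896, SCAP at 17.8 ± 0.51 and INSIG1 at 14.5 ± 0.741 (SD, n = 3). RNF139 stood at 10.1 ± 0.566, INSIG2 at 7.45 ± 0.075, MBTPS2 at 6.01 ± 0.379 and STARD4 at 4.06 ± 0.343 CPM per kb. By this length all neighbours in the order were further apart than their SDs. By the length of all exons combined, MBTPS1 dropped to 10.7 CPM per kb, below INSIG1 at 11.97 ± 0.611 and SCAP at 12.1 ± 0.349, which then did not differ beyond their spread. By that length STARD4, at 3.29 ± 0.278, and MBTPS2, at 2.98 ± 0.188 CPM per kb, changed places and lay within their spread.

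The products that SREBP factors switch on were read from lists chosen with earlier results of these data known. Of 22 genes of sterol synthesis and uptake, 12 fell and 0 rose with ascites in the averaged contrast, with a median log2 change of -0.14 against 0.00 for all genes, of which 0.281% were called. MSMO1, a sterol demethylation enzyme, fell by 0.28 on the log2 scale (adjusted p = 1.19e-05), and HMGCS1, the HMG-CoA synthase, fell by 0.14 (adjusted p = 0.00031). Of 14 fatty acid synthesis genes, 6 fell and 0 rose, among them SCD, the stearoyl-CoA desaturase, at -0.22 (adjusted p = 1.33e-10). The 9 members and these 2 lists, 45 genes in all, held 20 of the 29 genes that fell with ascites, which were 0.233% of the 12470 tested. Since members and lists were chosen with earlier results of these data known, this count is not separate evidence about them.

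With bezafibrate the same lists moved mostly the other way. In the averaged contrast, where 15% of all genes rose and 13.2% fell, 12 of the 22 sterol genes rose and 1 fell, with a median of 0.10. FDFT1, squalene synthase, rose by 0.53 (adjusted p = 7.21e-19), whereas HMGCS1 fell by 0.16 (adjusted p = 2.05e-07). Of the 14 fatty acid genes 6 rose and 1 fell, led by the elongase ELOVL6 at 0.50 (adjusted p = 8.16e-19), while FASN, fatty acid synthase, was at -0.05 (adjusted p = 0.192). SREBF1 is also a target of LXR, the oxysterol receptor. Of 10 genes listed as LXR and its targets, 6 rose with bezafibrate and 0 fell, against the same 15% and 13.2% of all genes. They included NR1H3, which encodes LXR alpha, at 1.10 (adjusted p = 1.11e-15), and ABCA1, a cholesterol exporter, at 0.83. LPCAT3, a phospholipid remodelling enzyme, was at 0.94 (adjusted p = 6.79e-25). This list was also chosen with earlier results known. SREBF1, which is not in it, fell, and the part of LXR in these changes was not tested.

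**Figure D4:**
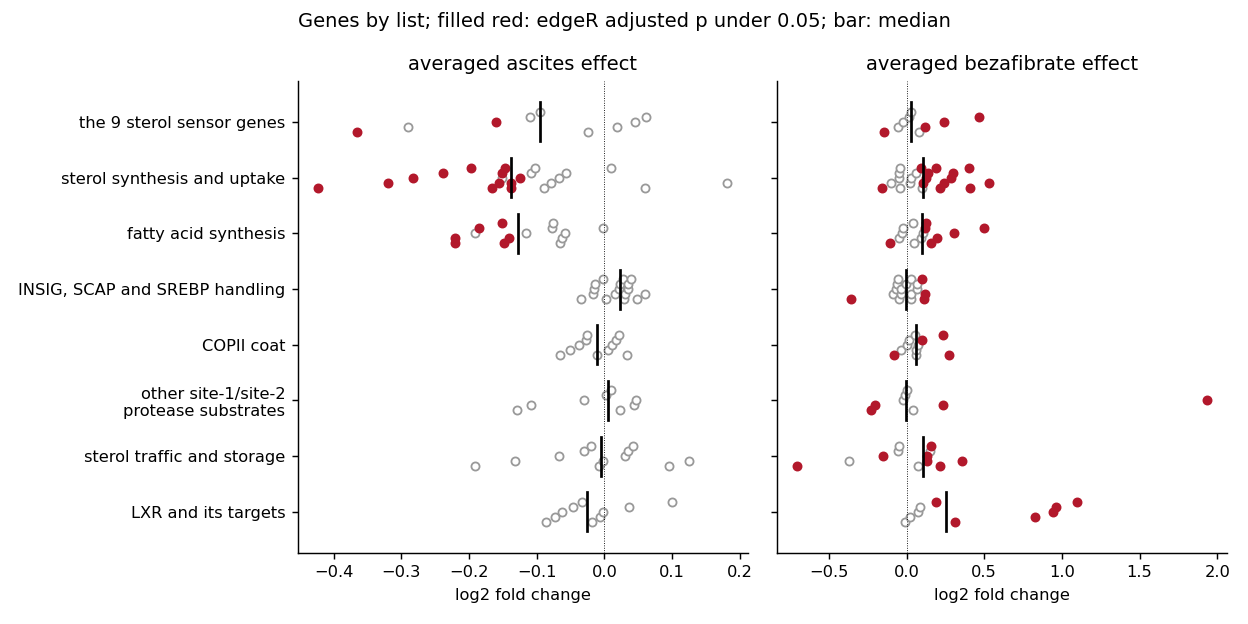
Log2 fold change (horizontal axis) of each tested gene by list (vertical axis) for ascites and for bezafibrate; filled red points passed an adjusted p of 0.05 and bars mark medians. The sterol synthesis list has its median at -0.14 with ascites and at 0.10 with bezafibrate.

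Genes with the pattern most like each member that was called were found by the root mean square difference of centred log2 CPM over 12 libraries, among 11917 genes. The 5 genes nearest to INSIG1 included MSMO1 (0.0843), SCD (0.116), NDRG1 (0.121) and IL15 (0.122), where the median over all genes was 0.316. The 5 nearest to SREBF2 included MVD (0.0381), NT5DC2 (0.0575), DHCR7 (0.0639) and RRP9 (0.0661), with a median over all genes of 0.154. STARD4 was nearest to SQLE (0.111), FAM171B (0.137), IDI1 (0.137), SCD (0.141) and LIPG (0.147), against a median of 0.250. SREBF1 had CIC (0.0376), NPIPB5 (0.0436), TAF4 (0.0446), RAVER1 (0.0486) and PIP5K1C (0.0489) as its nearest genes, against a median of 0.144, none of them in the sterol or fatty acid lists. These distances are descriptions over libraries that share the same scaling. For SREBF1 the lowest centred value was in combination replicate 3, the library that stood apart. It was -0.264 there, against -0.0884 and -0.112 in combination replicates 1 and 2. The distances were not computed without that library.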

How the data were processed

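Each of the 12 libraries was deposited by the authors as a table of whole-number counts per gene. Per the submitters' processing notes, Trimmomatic 0.39, STAR 2.7.9a, RSEM 1.3.3, DESeq2 1.28.1 and GRCh38 were used, with no role or order given, so the counts may be rounded RSEM estimates. Annotation version and strandedness are not given in the sources used here. Groups and replicate numbers came from the labels. Genes were kept by filterByExpr (minimum count 10, total 15), leaving 12470, and scaled by TMM. edgeR 4.0.16 in R 4.3.3 fitted 1 mean per group over all 12 libraries (robust quasi-likelihood, 8 residual degrees of freedom), and p values were adjusted by Benjamini-Hochberg over all tested genes. CPM used the TMM library sizes. Averaged effects are means of both pairwise changes of an agent. Ratios were compared by exact permutation within strata. The fit was tested on simulated data. Gene positions and lengths came from GENCODE v29. Alternatives were RLE and upper-quartile scaling, no filter, a replicate block, fits of only the groups compared, DESeq2 1.42.0, and leaving out each library. Named genes were all members, fixed marker and pathway genes, the largest called rise and fall of each list, and the 5 genes most alike; some of these are not reported here. Members and lists were chosen with earlier results of these data known.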

Additional observations from a re-analysis of the deposited data

How the results depend on the processing

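Across 18 alternatives, 11 of the 13 called member results stayed called in the same direction, and the exceptions were SREBF2 with bezafibrate against control and SREBF2 in the averaged ascites contrast. The number of members called with bezafibrate against control was 4 with only the groups compared fitted and 1 to 3 without 1 library. For the combination against bezafibrate it was 3 with no filter on low counts and 1 to 2 without 1 library, and for averaged ascites it was 4 with no filter and 1 to 3 without 1 library. Calls were lost 10 times without 1 library and 0 times elsewhere. The SREBF1 to SREBF2 ratio with averaged ascites ranged from 0.0295 to 0.0655 on the log2 scale without 1 library, and passed without control replicate 2 (exact permutation p = 0.045) and without combination replicate 3 (exact permutation p = 0.03); the cause was not tested. Of the 72 member results, 17 changed sign under some alternative, 30 times in all; none of them was called and the largest size after a change was 0.0662. With upper-quartile scaling SCAP was at -0.0027 in the averaged bezafibrate contrast. The others changed sign without 1 library, and their lowest and highest log2 values were as follows. For ascites against control they were -0.0187 to 0.0309 for MBTPS1 and -0.0101 to 0.08995 for SCAP. For bezafibrate against control they were -9.04e-06 to 0.0829 for RNF139 and -0.0754 to 0.0353 for INSIG2. For the combination against ascites they were -0.0562 to 0.0454 for SCAP, -0.0161 to 0.0644 for RNF139, -0.0252 to 0.016 for MBTPS2 and -0.0088 to 0.0464 for MBTPS1. For the combination against bezafibrate they were -0.0296 to 0.029 for SCAP. For the combination against control they were -0.133 to 0.0369 for STARD4 and -0.0058 to 0.0514 for MBTPS1. For the interaction they were -0.136 to 0.0662 for STARD4, -0.0616 to 0.0267 for RNF139, -0.114 to 0.0099 for INSIG2 and -0.0971 to 0.0036 for SCAP. For the averaged ascites effect they were -0.0083 to 0.0414 for SCAP. For the averaged bezafibrate effect they were -0.0076 to 0.0436 for SCAP. Over all genes, no filter on low counts raised the calls from 11 to 59 with ascites against control, from 16 to 52 with the combination against bezafibrate, from 35 to 113 in the averaged ascites contrast and from 0 to 36 in the interaction. With only the groups compared fitted, the first was 33 and the second 7. For ascites against control all calls were lower as reported, but 25 of the 59 and 10 of the 33 were higher. Without 1 library they ranged from 3 to 24, 9 to 28, 21 to 118 (the highest without combination replicate 3) and 0 to 3. The labels repeat replicate numbers 1 to 3 in each group, but same-numbered libraries did not deviate together (correlations of -0.135 to 0.0613 over 18 pairs, and 1 of 12 libraries correlated best with its own number). With the replicate block the calls were 8, 14, 31 and 1, no member call was lost or gained, and the paired ratio test gave p = 0.0312 (exact permutation) for INSIG1 to INSIG2 with either agent and for SREBF1 to SREBF2 with bezafibrate, and 0.0625 for SREBF1 to SREBF2 with ascites. Counting error limits STARD4 and INSIG2 most, with as few as 192 and 203 counts in a library.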

Other observations

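Other genes around the sensor were read from the remaining lists, which were also chosen with earlier results known. In the averaged bezafibrate contrast 28.3% of all genes were called, 15% higher and 13.2% lower, and the counts below are to be read against those shares. Of 17 handling genes, 3 rose and 1 fell, which in both directions together is no higher than the 28.3% of all genes. RNF145, a ubiquitin ligase of the same pathway, fell by 0.36 on the log2 scale (adjusted p = 4.45e-12), from 109.8 ± 4.10 CPM in control to 85.4 ± 2.21 with bezafibrate (SD, n = 3 each). The COPII coat carries SCAP and SREBP out of the endoplasmic reticulum. Of its 11 genes 3 rose and 1 fell, beside 15% and 13.2% of all genes, with SEC23A at 0.27 (adjusted p = 6.24e-13) and SAR1A at -0.08 (adjusted p = 0.0208).

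CREB3L3, a membrane-bound factor cut by the same proteases and a known PPAR alpha target, had the largest rise among their other substrates. It stood at 40.8 ± 1.81 CPM in control, 37.7 ± 0.356 in ascites, 155.4 ± 5.13 in bezafibrate and 144.3 ± 3.76 in the combination (SD, n = 3 each), an averaged drug change of 1.93 (adjusted p = 6.33e-34), while the transcripts of MBTPS1 and MBTPS2 were not called. CREB3L1, its relative, fell by 0.23 (adjusted p = 0.000813). Among 12 tested sterol traffic genes 5 rose and 2 fell with bezafibrate, beside 15% and 13.2% of all genes. SOAT1, which esterifies cholesterol, rose by 0.35 (adjusted p = 1.76e-11), and GRAMD1B, a sterol carrier at membrane contacts, fell by 0.70 (adjusted p = 2.25e-07).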
